A study of Homo sapiens with 48 samples.

Results

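Total cytoplasmic RNA of SW480 cells was examined after knockdown of eIF2Bα, the product of EIF2B1. SW480 is an established human colorectal cancer line with truncated APC. The libraries were chosen by their labels: total RNA of the control line shCTRL and of the line shEIF2B1, each without doxycycline (-DOX, kept in DMSO) and with 1 µg/ml doxycycline for 5 days (+DOX), replicates 1 to 4. These are 16 of the 48 libraries of the series, 4 in each group, and the rest are a second knockdown line, shEIF2B4, and libraries of ribosome-protected fragments (RPFs). All lines carry a lentiviral shRNA that is expressed once doxycycline is added, a non-targeting one in shCTRL, and they are transduced populations rather than single clones. Doxycycline was therefore given to the control line as well, and its effect was subtracted. The replicates were made in 4 separate weeks. Total RNA was taken from the lysate of pooled dishes before RNase digestion, so RPFs and total RNA of a given week and condition come from the same cells.

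For each of 11947 genes, the response was the change from -DOX to +DOX in shEIF2B1 minus the same change in shCTRL. Values are regularized log2 values that the authors made with DESeq2, and every response below is a difference of such values, so 1 unit is a doubling of the linear value. Regularization pulls genes with few reads toward their mean, and the fold changes of such genes are understated. The files hold no read counts, and the depth of each library is unknown. Responses were tested with limma with the week as a block, two-sided, and genes with a Benjamini-Hochberg adjusted p under 0.1 over all 11947 genes were called higher or lower. Each adjusted p below comes from that limma fit, SE is its standard error, and intervals are 95% intervals without adjustment for the number of genes. Since RNA was measured in bulk, fewer cells that express a gene and less RNA per cell cannot be told apart.

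eIF2B is the guanine nucleotide exchange factor that reloads eIF2 with GTP, so that eIF2 can bring the initiator tRNA to the ribosome. Kinases of the integrated stress response (ISR) phosphorylate eIF2α, and phosphorylated eIF2 binds eIF2B and blocks it. The regulatory subunits α, β and δ form the site that senses this phosphorylation, and γ and ε form the catalytic part. When exchange falls, the mRNA of the transcription factor ATF4 is translated more, and ATF4 with its partners then raises the transcription of genes for amino acid supply, for tRNA charging and for the feedback that ends the response. A change in total RNA is thus the downstream layer of this pathway, whereas ATF4 itself is regulated mainly at the step of translation.

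The library medians lay between 7.87 and 7.92, and single values between 2.80 and 19.9. After the mean of each group was removed, 15 libraries deviated by 0.093 to 0.16 (root mean square over genes), and the library of shEIF2B1 +DOX from week 2 by 0.23. Counts of calls are therefore also given without that library. The label of the cell type was checked with markers. EPCAM, a surface protein of epithelial cells, had log2 values of 9.15 to 10.18 in the 16 libraries, and 9 of 18 colorectal epithelial markers were measured. The other 9, among them the differentiation markers KRT20, VIL1, CDX1 and MUC2, were not listed in the table. Of the markers of other cells, 2 of 10 for fibroblasts and muscle, 3 of 10 for immune cells and 0 of 6 for endothelium were listed. None of these 5 was called, and none had an unadjusted p under 0.05.

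EIF2B1 itself fell. The gene lies at chr12:123620406-123633686 (GRCh38.p14). Its log2 values were 8.43, 8.52, 8.59 and 8.66 in shCTRL -DOX and 8.42, 8.10, 8.40 and 8.44 in shCTRL +DOX, in the order of the weeks. In shEIF2B1 they were 8.19, 8.21, 8.25 and 8.38 without and 7.68, 7.49, 7.10 and 7.24 with doxycycline. The induced knockdown libraries lay below the 12 others in every week, and the uninduced knockdown line, with a mean of 8.26, was already below uninduced shCTRL, with a mean of 8.55. The response was -0.67 (SE 0.15, interval -0.99 to -0.35, adjusted p = 0.0263), a fall of 37.2% of the linear value. Without week 3 or without week 4 the call was lost, and over all alternatives the adjusted p ranged from 0.000119 to 0.242. The other subunits were not called: EIF2B5, which encodes the catalytic ε subunit, had a response of -0.27 (interval -0.50 to -0.043, adjusted p = 0.233), EIF2B3 (γ) of -0.14, EIF2B4 (δ) of -0.091 and EIF2B2 (β) of -0.058.

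Of the 11947 genes, 414 were called (3.47% of those tested), 279 higher (2.34%) and 135 lower (1.13%). At an unadjusted p under 0.05 there were 993 and 832. The rises reached further than the falls: 28 of the called genes rose by more than 1, up to 2.87, and 0 fell by more than 1, the largest fall being -0.74. The median response was 0.53 among the higher and -0.46 among the lower genes, and -0.0038 over all genes. The sign held in 4 of 4 weeks for 276 of the higher and 133 of the lower genes, against 25.6% of all genes. In 190 of the higher genes all 4 libraries of shEIF2B1 +DOX lay above the 12 other libraries (3.72% of all genes did), and in 81 of the lower genes below them (2.56%). The genes were called on these same libraries, so such counts largely follow from the calls and are no separate support. The number of calls rested on the weeks. It was 111 without week 1, 645 without week 2, 208 without week 3 and 111 without week 4, and 679 without the library of shEIF2B1 +DOX from week 2. The call was kept with each week left out in turn for 77 of the higher and 6 of the lower genes. Those 6 were ANLN (-0.73), ERCC6L (-0.68), DLGAP5 (-0.68), PCNA (-0.65), RACGAP1 (-0.61) and CENPI (-0.59), of which the last pair was named after the values were seen.

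**Figure D1:**
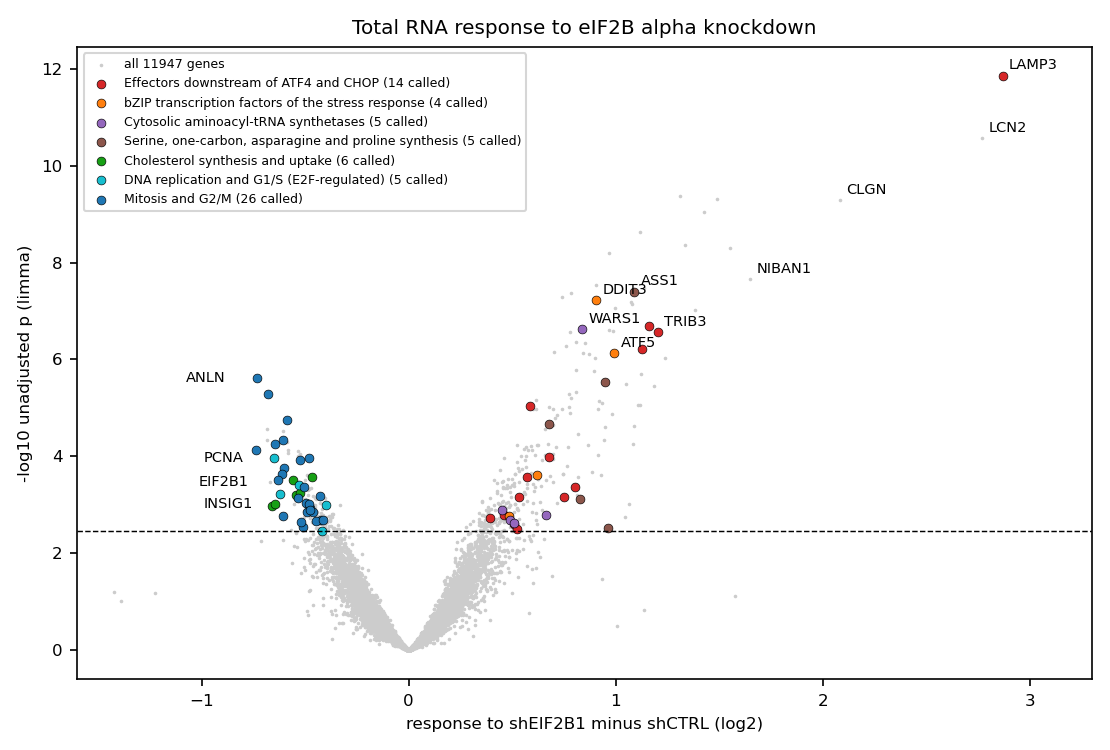
Each point is one of 11947 genes, with the log2 response to shEIF2B1 (corrected for shCTRL) on the x axis and -log10 of the unadjusted limma p on the y axis. The dashed line marks an adjusted p of 0.1 and the coloured points are the called members of 7 gene lists: stress and amino acid genes lie on the right, mitosis, replication and cholesterol genes on the left, with LAMP3 at 2.87 and ANLN at -0.73.

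The mRNA of ATF4 was not called. Its log2 values were 12.20, 12.09, 12.15 and 12.03 in shCTRL -DOX, 12.09, 12.12, 12.25 and 12.11 in shCTRL +DOX and 12.10, 12.10, 12.25 and 12.10 in shEIF2B1 -DOX. In shEIF2B1 +DOX they were 12.31, 12.54, 12.30 and 12.24, and the lowest of these lay below the highest library of shCTRL +DOX. The response was 0.19 (SE 0.11, adjusted p = 0.451), with an interval of -0.045 to 0.42. In RPFs of the same lysates the ATF4 response was 1.02 (adjusted p = 0.000223), so ATF4 was called on ribosomes and not in total RNA.

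Among the bZIP transcription factors of the stress response, 4 of 25 measured genes rose and 0 fell, with a median of 0.18. Over all genes 2.34% were called higher. DDIT3, which encodes CHOP, had values of 9.37, 9.53, 9.57 and 9.53 in shCTRL -DOX and 9.40, 9.25, 9.59 and 9.53 in shCTRL +DOX. It had 9.35, 9.43, 9.62 and 9.52 in shEIF2B1 -DOX and 10.13, 10.41, 10.41 and 10.36 in shEIF2B1 +DOX, all 4 of the latter above the 12 others. DDIT3 rose by 0.91 (SE 0.10, adjusted p = 4.16e-05), a fold of 1.87. ATF5, an ATF4 paralogue that is also regulated by upstream open reading frames, rose by 0.99 (SE 0.14, adjusted p = 0.000261). CEBPG, which dimerizes with ATF4, rose by 0.62 (SE 0.14, adjusted p = 0.0219) and CEBPB by 0.48 (SE 0.13, adjusted p = 0.069). The calls of DDIT3 and ATF5 were kept with each week left out, and that of CEBPG was lost without week 1 or week 4 and that of CEBPB without week 1, 3 or 4. ATF3, another target of the pathway, had a response of 0.25 (adjusted p = 0.558). The list counted 2 genes without week 1 and 2 without week 4.

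PPP1R15A, which encodes the GADD34 subunit that directs the phosphatase PP1 to eIF2α, was the single call among 14 genes for eIF2 subunits, eIF2α kinases and phosphatase cofactors. Its values were 7.71, 7.80, 7.68 and 7.47 in shCTRL -DOX, 7.74, 7.83, 7.34 and 7.27 in shCTRL +DOX, 7.52, 7.78, 7.61 and 7.58 in shEIF2B1 -DOX and 8.20, 8.57, 8.15 and 8.07 in shEIF2B1 +DOX. The induced knockdown lay above every other library. PPP1R15A rose by 0.74 (SE 0.12, adjusted p = 0.0021), and the call was kept with each week left out.

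**Figure D2:**
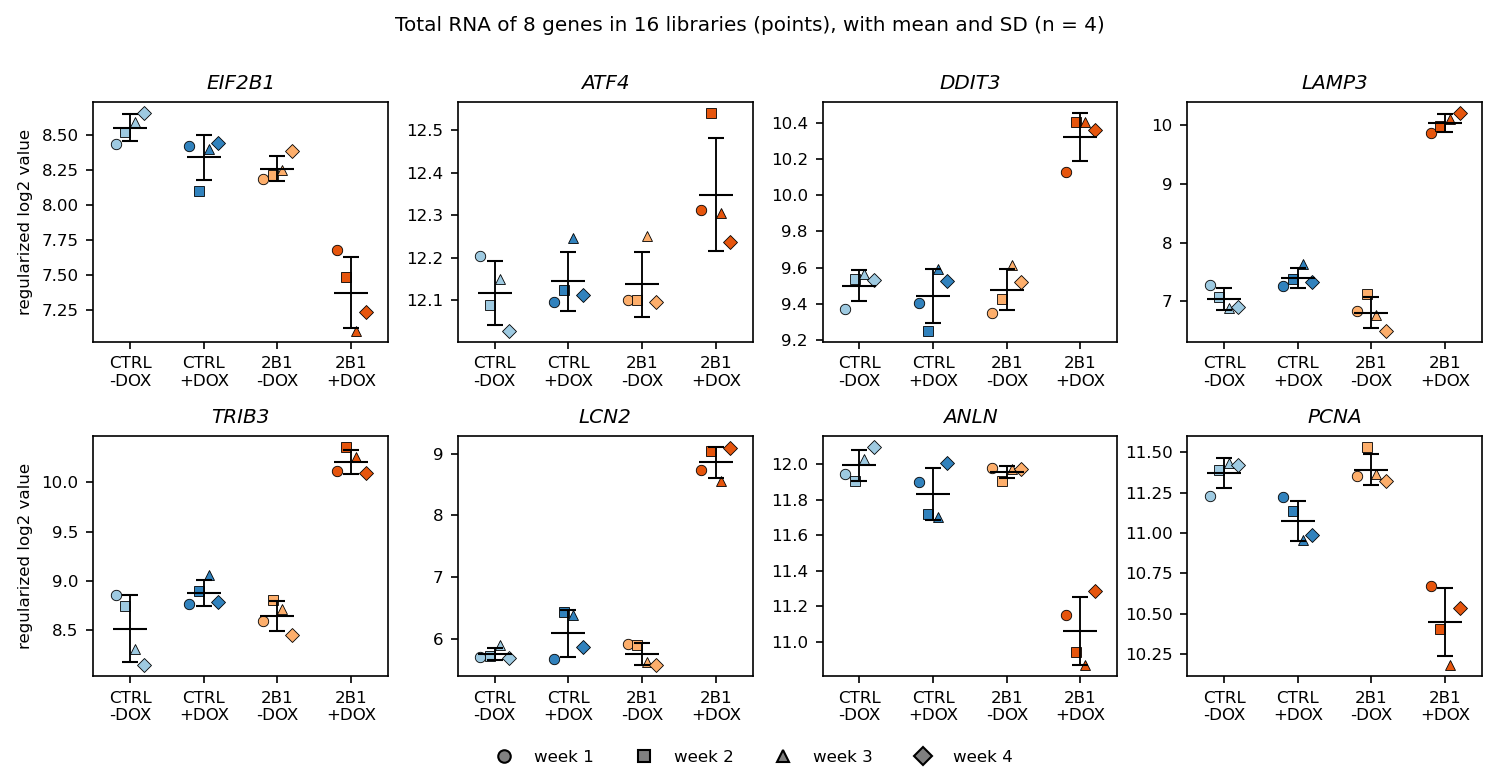
Regularized log2 values of 8 genes in the 16 total RNA libraries, one panel per gene with its own y range. Points are libraries with the symbol giving the week, bars are the mean and SD of 4 weeks; in all panels but ATF4 the 4 libraries of shEIF2B1 +DOX lie apart from the 12 others.

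Effectors downstream of ATF4 and CHOP had the largest share of rises among the lists: 14 of 29 measured genes rose and 0 fell. The share called higher over all genes was 2.34%. The median response was 0.39 against -0.0038 over all genes. All lists and their members were chosen with earlier results of these data known. Their shares therefore describe the data and give no independent support. LAMP3, a lysosome-associated membrane protein induced by the unfolded protein response, had the largest response of all called genes. Its values were 7.29, 7.07, 6.89 and 6.90 in shCTRL -DOX, 7.26, 7.38, 7.64 and 7.34 in shCTRL +DOX, 6.84, 7.12, 6.77 and 6.50 in shEIF2B1 -DOX and 9.86, 9.99, 10.10 and 10.22 in shEIF2B1 +DOX. LAMP3 rose by 2.87 (SE 0.17, adjusted p = 1.67e-08), a fold of 7.30. TRIB3, a pseudokinase that binds ATF4 and restrains it, had 8.85, 8.74, 8.30 and 8.14 in shCTRL -DOX and 8.77, 8.89, 9.06 and 8.79 in shCTRL +DOX. It had 8.59, 8.80, 8.71 and 8.45 in shEIF2B1 -DOX and 10.11, 10.36, 10.26 and 10.10 in shEIF2B1 +DOX. TRIB3 rose by 1.20 (SE 0.15, adjusted p = 0.000119), a fold of 2.30, and the induced knockdown did not overlap any other group.

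INHBE, an activin subunit, rose by 1.16 (SE 0.14, adjusted p = 0.00011), and SLFN5 by 1.13 (SE 0.15, adjusted p = 0.000231). SLFN5 was assigned to this list and not to the interferon-stimulated genes, and its dependence on ATF4 or interferon was not tested. HERPUD1, a component of endoplasmic reticulum (ER) associated degradation, had 9.61, 9.55, 9.71 and 9.50 in shEIF2B1 +DOX against 8.66 to 9.04 in the 12 other libraries, and rose by 0.58 (SE 0.097, adjusted p = 0.00203). CHAC1, which degrades glutathione, rose by 0.53 (SE 0.13, adjusted p = 0.0434). The secreted stress cytokine GDF15 rose by 0.81 (SE 0.19, adjusted p = 0.0306), SESN2, a sestrin that senses leucine and restrains mTORC1, by 0.68 (SE 0.14, adjusted p = 0.0115), and NUPR1 by 0.75 (SE 0.18, adjusted p = 0.0419). The remaining calls were ADM2, GADD45A, STC2, DDIT4 and RHBDD1, which rose by between 0.39 (STC2) and 0.57 (ADM2). LAMP3, TRIB3, INHBE, SLFN5 and HERPUD1 kept the call with each week left out. The count was 10, 12, 8 and 5 without weeks 1, 2, 3 and 4, and 13 without the library of shEIF2B1 +DOX from week 2.

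ATF4 with a C/EBP partner binds the CARE element, written here as TGATGNAA and searched on both strands in RefSeq promoter windows (GRCh38.p14, 250 bases before to 50 after a transcription start). Windows were matched by gene symbol for 9888 of the 11947 genes. The motif was in a window of 2.65% of these genes, of 4.46% of all RefSeq genes in the table, of 6.49% of the called higher genes (15 of 231 matched) and of 4.35% of the called lower genes (5 of 115 matched). None of the 9 matched genes among the 12 largest rises held it. The 3 windows below belong to called genes that hold it (ASNS is described further on); they were chosen after the values were seen, to show where the element lies in well-known ATF4 targets. Capitals mark the match, read on the window's own strand.
ASNS (chr7:97872359-97872658, strand -): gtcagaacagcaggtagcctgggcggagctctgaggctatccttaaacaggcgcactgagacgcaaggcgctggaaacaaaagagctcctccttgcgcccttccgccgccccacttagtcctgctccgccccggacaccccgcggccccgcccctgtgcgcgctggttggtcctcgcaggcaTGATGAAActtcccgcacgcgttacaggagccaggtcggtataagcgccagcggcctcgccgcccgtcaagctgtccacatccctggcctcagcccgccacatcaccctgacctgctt
CHAC1 (chr15:40953221-40953520, strand +): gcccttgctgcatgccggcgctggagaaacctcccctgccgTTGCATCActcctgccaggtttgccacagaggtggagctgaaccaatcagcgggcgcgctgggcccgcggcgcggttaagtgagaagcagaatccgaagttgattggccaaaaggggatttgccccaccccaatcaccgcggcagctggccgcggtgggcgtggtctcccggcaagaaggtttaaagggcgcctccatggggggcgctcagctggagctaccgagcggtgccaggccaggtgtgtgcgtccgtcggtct
HERPUD1 (chr16:56931892-56932191, strand +): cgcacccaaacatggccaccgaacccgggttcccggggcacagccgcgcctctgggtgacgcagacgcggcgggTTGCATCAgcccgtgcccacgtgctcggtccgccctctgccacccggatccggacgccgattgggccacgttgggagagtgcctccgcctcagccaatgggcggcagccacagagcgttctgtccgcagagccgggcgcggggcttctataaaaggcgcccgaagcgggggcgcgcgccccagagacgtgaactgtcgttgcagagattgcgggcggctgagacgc
The match begins at -68 from the annotated start in ASNS, at -209 in CHAC1 and at -176 in HERPUD1, and lies on the opposite strand in CHAC1 and HERPUD1. A match is a description of the sequence, and binding was not measured.

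The 12 largest rises among called genes with the same sign in 4 of 4 weeks were LAMP3, LCN2, CLGN, NIBAN1, SLC26A4, BEX2, SLPI, IDH1, STK32A, TNFRSF9, LOX and TRIB3. LCN2 encodes lipocalin 2, a secreted protein that binds iron-carrying siderophores. Its values were 5.70, 5.72, 5.89 and 5.69 in shCTRL -DOX, 5.68, 6.43, 6.38 and 5.86 in shCTRL +DOX, 5.91, 5.90, 5.62 and 5.58 in shEIF2B1 -DOX and 8.73, 9.05, 8.56 and 9.09 in shEIF2B1 +DOX. LCN2 rose by 2.77 (SE 0.20, adjusted p = 1.65e-07), a fold of 6.82, with no overlap between the induced knockdown and the rest. CLGN, a chaperone of the ER related to calnexin, had 8.30, 7.85, 8.50 and 8.46 in shEIF2B1 +DOX against 5.64 to 6.31 elsewhere, and rose by 2.08 (SE 0.18, adjusted p = 1.22e-06). NIBAN1, a stress-induced cytoplasmic protein, rose by 1.65 (SE 0.18, adjusted p = 2.35e-05). SLC26A4, an anion exchanger, rose by 1.55, BEX2 by 1.49, the secreted protease inhibitor SLPI by 1.43 and the cytosolic isocitrate dehydrogenase IDH1 by 1.38. The kinase STK32A rose by 1.33, the receptor TNFRSF9 by 1.31 and the lysyl oxidase LOX by 1.24. In these 12 genes the induced knockdown lay above all 12 other libraries, and each call was kept with each week left out.

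**Figure D3:**
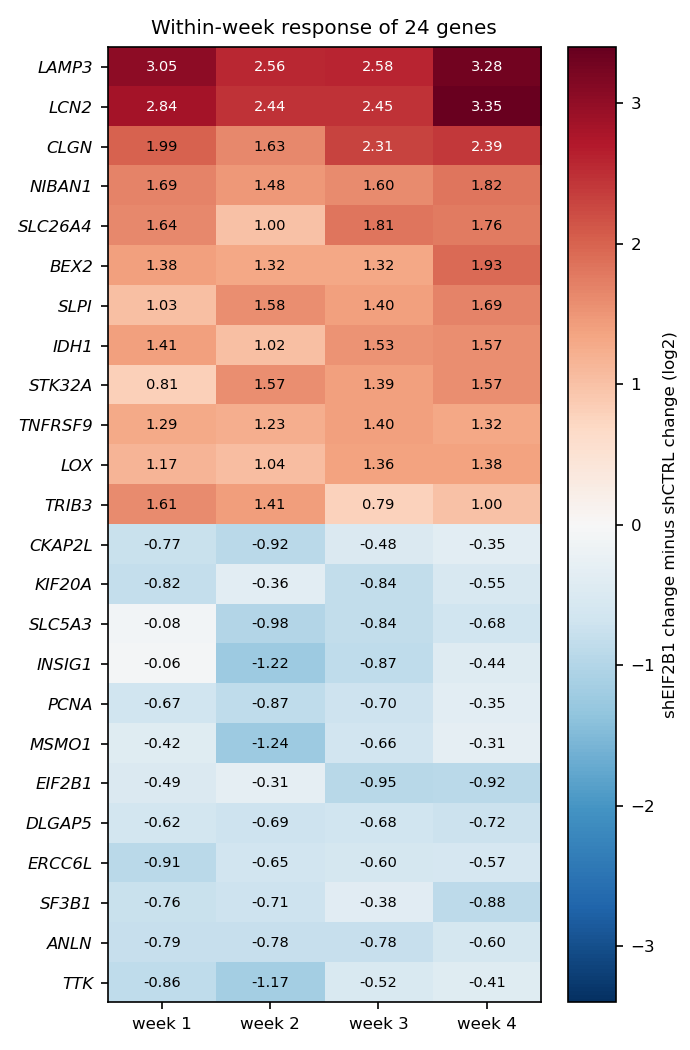
Within-week log2 response (change in shEIF2B1 minus change in shCTRL) of the 12 largest rises and the 12 largest falls, one column per week, with the value in each cell and colour on a scale symmetric about 0. The rises lie between 1.20 and 2.87 as means over weeks. The same sign in every week was a condition for choosing the 24 genes, and INSIG1 and SLC5A3 were close to 0 in week 1.

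Genes for the synthesis of serine, one-carbon units, asparagine, proline and related amino acids were called higher in 5 of 21 cases and lower in 0 (median 0.21). Of all genes, 2.34% were called higher. ASS1, which makes argininosuccinate in the synthesis of arginine, had 9.93, 9.97, 9.67 and 9.50 in shCTRL -DOX, 10.08, 10.43, 10.32 and 9.77 in shCTRL +DOX, 9.84, 9.96, 9.80 and 9.53 in shEIF2B1 -DOX and 11.06, 11.57, 11.39 and 10.99 in shEIF2B1 +DOX. ASS1 rose by 1.09 (SE 0.12, adjusted p = 3.39e-05). ALDH1L2 and SHMT2, both enzymes of the mitochondrial folate pathway, rose by 0.95 (SE 0.14, adjusted p = 0.000834) and 0.68 (SE 0.12, adjusted p = 0.0037). ASNS, asparagine synthetase, had 10.23, 10.07, 9.55 and 9.47 in shCTRL -DOX and 10.57, 10.63, 10.39 and 10.31 in shCTRL +DOX. In shEIF2B1 it had 10.18, 10.45, 10.12 and 9.63 without and 11.54, 11.28, 11.82 and 11.64 with doxycycline. The control line rose as well, by 0.64 (adjusted p = 0.0144 in shCTRL alone), and the response after its subtraction was 0.83 (SE 0.21, adjusted p = 0.0459). CBS, which condenses serine with homocysteine, rose by 0.96 (SE 0.28, adjusted p = 0.0914). PSAT1, PHGDH and MTHFD2 were not called, with responses of 0.24, 0.37 and 0.31 (adjusted p = 0.569, 0.187 and 0.34). ASS1, ALDH1L2 and SHMT2 kept the call with each week left out, whereas ASNS lost it without week 1, 3 or 4. The list counted 3 genes without each of those weeks.

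Amino acid transporters split: 3 of 23 rose and 1 fell (2.34% and 1.13% over all genes), with a median of 0.05. SLC6A9, a glycine transporter, had 6.80, 7.18, 7.19 and 7.04 in shEIF2B1 +DOX against 5.59 to 6.34 in the 12 others and rose by 0.84 (SE 0.12, adjusted p = 0.000261). SLC1A4, a transporter of alanine, serine and cysteine, rose by 0.70 (SE 0.14, adjusted p = 0.0107), and SLC43A1, which carries large neutral amino acids, by 0.50 (SE 0.14, adjusted p = 0.069). SLC1A3, a glutamate transporter, fell, with a response of -0.41 (SE 0.12, adjusted p = 0.0816). SLC7A11, the cystine carrier, had 0.63 with a wide interval of 0.16 to 1.11 and was not called (adjusted p = 0.181). SLC6A9 kept its call with each week left out; the list had 1 rise and 0 falls without week 1, 2 rises and 0 falls without week 2 or week 4, and 3 rises and 0 falls without week 3.

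Of 21 cytosolic aminoacyl-tRNA synthetases, 5 rose and 0 fell (median 0.10), against 2.34% of all genes called higher. Of 17 mitochondrial synthetases 0 were called (median -0.17). Without adjustment, p was under 0.05 for 7 higher and 0 lower genes of the cytosolic list and for 0 higher and 4 lower genes of the mitochondrial one. WARS1, which charges tRNA with tryptophan, had 9.41, 9.44, 9.50 and 9.33 in shCTRL -DOX, 9.48, 9.67, 9.92 and 9.64 in shCTRL +DOX, 9.31, 9.61, 9.50 and 9.41 in shEIF2B1 -DOX and 10.34, 10.60, 10.76 and 10.52 in shEIF2B1 +DOX. WARS1 rose by 0.84 (SE 0.11, adjusted p = 0.000119), with no overlap. The synthetases for glycine (GARS1), serine (SARS1), isoleucine (IARS1) and methionine (MARS1) rose by 0.66, 0.51, 0.49 and 0.45. Their adjusted p was 0.069, 0.0805, 0.0757 and 0.061, close to the threshold, and WARS1 was the single one of the 5 to keep the call with each week left out. The count was 1, 4, 2 and 1 without weeks 1, 2, 3 and 4. The CARE motif was in a promoter window of 3 of the 5 called synthetases (GARS1, IARS1 and MARS1), or 60%. It was in 4 of the 11 matched ones that were not called, or 36.4%. So few genes cannot show whether these shares differ.

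Among chaperones and folding enzymes of the ER, 3 of 25 rose (2.34% of all genes did) and 0 fell, with a median of 0.17. Besides HERPUD1, the calls were HYOU1, an ER chaperone of the HSP70 family, with 0.55 (SE 0.14, adjusted p = 0.0517), and DNAJC10, an ER disulfide reductase, with 0.62 (SE 0.17, adjusted p = 0.0664). The weekly responses of HYOU1 were 0.36, 1.18, 0.34 and 0.32, and without week 2 its response was 0.34 (adjusted p = 0.0721). HSPA5, which encodes the main ER chaperone BiP, had 0.34 and was not called (adjusted p = 0.265), and HSP90B1 had 0.10. The count was 1, 4, 2 and 1 without weeks 1, 2, 3 and 4. Of 20 cytosolic and mitochondrial heat shock chaperones 0 were called, with 1 higher and 4 lower at an unadjusted p under 0.05 and a median of -0.21.

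Genes of mitosis and the G2/M phase were mostly lower. Their list, too, was chosen with earlier results of these data known. Of 52 measured genes 26 fell and 0 rose, with a median of -0.46 against -0.0038 over all genes, and 50 of the 52 had a response below 0. In 31 of the 52 genes all libraries of shEIF2B1 +DOX lay below the 12 others. Over all genes 1.13% were called lower and 2.56% lay below the others in this way. ANLN encodes anillin, a scaffold of the cytokinetic ring. Its values were 11.94, 11.90, 12.03 and 12.10 in shCTRL -DOX, 11.90, 11.72, 11.70 and 12.01 in shCTRL +DOX, 11.98, 11.91, 11.97 and 11.98 in shEIF2B1 -DOX and 11.15, 10.94, 10.87 and 11.28 in shEIF2B1 +DOX. ANLN fell, with a response of -0.73 (SE 0.11, adjusted p = 0.000713), or 39.9% of the linear value. TTK, the kinase MPS1 of the spindle checkpoint, had 10.59, 10.54, 10.50 and 10.69 in shCTRL -DOX, 10.68, 10.51, 10.22 and 10.66 in shCTRL +DOX and 10.80, 10.67, 10.68 and 10.60 in shEIF2B1 -DOX. In shEIF2B1 +DOX it had 10.03, 9.47, 9.87 and 10.17, each below every library of the other groups. TTK fell, with a response of -0.74 (SE 0.15, adjusted p = 0.00927).

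DLGAP5, a spindle protein that stabilizes kinetochore fibres, had 8.81, 8.55, 8.69 and 8.77 in shEIF2B1 +DOX against 9.20 to 9.45 elsewhere and fell, with a response of -0.68 (SE 0.11, adjusted p = 0.00131). The kinesins KIF20A and KIF2C fell, with responses of -0.64 (SE 0.12, adjusted p = 0.00813) and -0.59 (SE 0.10, adjusted p = 0.00318). TPX2, which activates Aurora A on spindle microtubules, fell, with a response of -0.61 (SE 0.11, adjusted p = 0.00706). Other called members were the mitotic kinase AURKA, and BUB1, BUB1B, NDC80, MAD2L1 and CENPE of the kinetochore and checkpoint. TOP2A, NCAPG, NCAPH and SMC4 of chromosome condensation were called too. So was CCNB1, the mitotic cyclin, with -0.51 (SE 0.15, adjusted p = 0.0897). The mitotic kinase genes CDK1, PLK1 and AURKB were not called: CDK1 had -0.50 (interval -0.83 to -0.17, adjusted p = 0.122), PLK1 had -0.35 and AURKB -0.23. ERCC6L and CKAP2L, mitotic genes outside the list and among the 12 largest falls, had responses of -0.68 and -0.63. The count of 26 rested on the weeks. It was 2 without week 1, 27 without week 2, 13 without week 3 and 6 without week 4, while the median of the list stayed between -0.50 and -0.42; without the library of shEIF2B1 +DOX from week 2 it was 29, with a median of -0.38. ANLN and DLGAP5 kept the call with each week left out.

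Many late cell cycle genes carry the cell cycle genes homology region (CHR), TTTGAA, near their start, where the DREAM and MuvB complexes bind. It was searched on both strands of the same windows. CHR was in a window of 13.7% of the matched tested genes and 18.2% of all RefSeq genes in the table. It was in 30.4% of the called lower genes (35 of 115) and 16.9% of the called higher genes. In the mitosis list it was in 15 of 23 called genes (65.2%) and in 17 of 21 genes that were not called (81%), so within the list the called genes were not richer in it. Both windows below are called mitotic genes with the element close to the start, chosen after the values were seen.
ANLN (chr7:36389612-36389911, strand +): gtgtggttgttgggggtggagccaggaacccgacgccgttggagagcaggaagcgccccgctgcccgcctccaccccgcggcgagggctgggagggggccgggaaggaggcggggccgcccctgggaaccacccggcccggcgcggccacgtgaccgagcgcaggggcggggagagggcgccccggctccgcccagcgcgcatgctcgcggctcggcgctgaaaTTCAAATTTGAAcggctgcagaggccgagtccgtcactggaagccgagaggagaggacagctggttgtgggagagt
PRC1 (chr15:90994486-90994785, strand -): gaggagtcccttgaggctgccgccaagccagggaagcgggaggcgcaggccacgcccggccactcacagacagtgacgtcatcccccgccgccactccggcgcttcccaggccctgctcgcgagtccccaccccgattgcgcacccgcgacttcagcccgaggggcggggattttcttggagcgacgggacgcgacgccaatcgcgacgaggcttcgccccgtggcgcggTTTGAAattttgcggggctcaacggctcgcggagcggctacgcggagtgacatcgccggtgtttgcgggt
Capitals mark CHR. In ANLN a match on either strand lies next to the other, and in PRC1, which bundles the microtubules of the central spindle and fell, with a response of -0.41 (SE 0.11, adjusted p = 0.0757), the match begins at -20 from the start.

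Genes of DNA replication and the G1/S transition, which are mostly driven by E2F factors, moved less. Of 45 genes 5 fell and 0 rose, against 1.13% of all genes called lower. Even so, 44 of the 45 responses lay below 0 (median -0.24), and 18 were lower at an unadjusted p under 0.05. PCNA, the sliding clamp of DNA polymerases, had 11.23, 11.39, 11.43 and 11.42 in shCTRL -DOX, 11.22, 11.14, 10.96 and 10.99 in shCTRL +DOX, 11.35, 11.53, 11.36 and 11.32 in shEIF2B1 -DOX and 10.67, 10.40, 10.18 and 10.53 in shEIF2B1 +DOX. The control line fell on induction as well, with a change of -0.29 (adjusted p = 0.0966 in shCTRL alone), and the response left after its subtraction was -0.65 (SE 0.13, adjusted p = 0.0116). MCM2, a subunit of the replicative helicase, fell, with a response of -0.62 (SE 0.15, adjusted p = 0.0386), and CCNA2, the cyclin of S and G2 phase, fell with -0.53 (SE 0.12, adjusted p = 0.0289). ORC1 and RFC3, which load the helicase and the clamp, fell, with responses of -0.40 and -0.42. Without weeks 1, 2, 3 and 4 the count was 1, 13, 1 and 1, PCNA being the gene that kept its call throughout, and it was 9 without the library of shEIF2B1 +DOX from week 2. CHR, searched only as the exact letters TTTGAA, was in none of the 5 called genes. It was in 1 of the 33 matched genes of this list that were not called, so its absence does not set the called genes apart. CDKN1A, the p21 inhibitor of cyclin-dependent kinases, had 0.25 (adjusted p = 0.319).

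Cholesterol synthesis and uptake fell in 6 of 26 genes and rose in 0, against 1.13% of all genes called lower. The median was -0.24, and 11 genes were lower at an unadjusted p under 0.05. FDFT1, squalene synthase, had values of 9.23, 9.08, 8.95 and 8.89 in shEIF2B1 +DOX, 9.59, 9.70, 9.45 and 9.41 in shEIF2B1 -DOX, 9.39, 9.43, 9.21 and 9.33 in shCTRL -DOX and 9.50, 9.29, 9.12 and 9.31 in shCTRL +DOX. It fell, with a response of -0.47 (SE 0.10, adjusted p = 0.0229), although its induced libraries overlapped those of the control, since the uninduced knockdown line lay higher. The enzymes HMGCS1, IDI1, SQLE and MSMO1 fell, with responses of -0.54, -0.56, -0.53 and -0.66, with adjusted p of 0.0396, 0.025, 0.0373 and 0.0531. MSMO1 had weekly responses of -0.42, -1.24, -0.66 and -0.31, largest in week 2, and its call was lost without week 1, 3 or 4. INSIG1, the ER protein that holds back SREBP when sterols are plentiful and is itself an SREBP target, had weekly responses of -0.058, -1.22, -0.87 and -0.44. INSIG1 fell, with a response of -0.65 (SE 0.16, adjusted p = 0.0513), strongly in week 2 and hardly in week 1. The number of calls in this list rested on the weeks: 2 without week 1, 9 without week 2, 2 without week 3 and 0 without week 4 (limma, 9 lower at an unadjusted p under 0.05), where the median was -0.21. They were 9 without the library of shEIF2B1 +DOX from week 2. In fatty acid synthesis 1 of 15 genes fell, ACLY, which makes cytosolic acetyl-CoA, with a response of -0.41 (SE 0.11, adjusted p = 0.0721) that was lost without week 1, 3 or 4.

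Among RNA-binding proteins, 2 of 25 hnRNP genes fell and 0 rose (median -0.25), against 1.13% of all genes called lower. The study had singled out this group on these same lysates, so their direction is no independent evidence. HNRNPA2B1 had 11.26, 11.08, 11.11 and 11.34 in shEIF2B1 +DOX against 11.39 to 12.15 elsewhere and fell, with a response of -0.62 (SE 0.14, adjusted p = 0.0248). HNRNPA3 fell, with a response of -0.50 (SE 0.12, adjusted p = 0.0459), and HNRNPD had -0.20 (adjusted p = 0.599). At an unadjusted p under 0.05, 12 were lower. With limma the count was 0 without week 1 or week 4, where 6 and 4 genes were lower at an unadjusted p under 0.05, and 5 without week 2. SF3B1, a core subunit of the U2 snRNP, was among the 12 largest falls and is in none of the lists. Its values were 10.47, 10.62, 10.37 and 10.66 in shCTRL -DOX, 10.77, 10.50, 10.39 and 10.83 in shCTRL +DOX, 10.62, 10.78, 10.62 and 10.89 in shEIF2B1 -DOX and 10.16, 9.95, 10.25 and 10.18 in shEIF2B1 +DOX. SF3B1 fell, with a response of -0.68 (SE 0.13, adjusted p = 0.00712), and without week 4 the call was lost. SLC5A3, a myo-inositol transporter and the last of the 12 largest falls not yet named, fell, with a response of -0.65 (SE 0.16, adjusted p = 0.0513).

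The remaining lists held few calls, and over all genes 3.47% were called. The WNT and interferon lists, at 3.8%, the AP-1 list, at 4.3%, and the NF-κB list, at 4.5%, were near that share. Autophagy and lysosome genes had 2 rises of 39 measured genes, LAMP3 and CTSD, the lysosomal protease cathepsin D (0.50 (SE 0.15, adjusted p = 0.094)). Translation initiation and elongation factors had 1 rise, of the 4E-binding protein gene EIF4EBP1 (0.48 (SE 0.12, adjusted p = 0.0494)), and 1 lower call, the helicase gene EIF4A2 (-0.43 (SE 0.13, adjusted p = 0.0931)), out of 39. For EIF4A2 the shEIF2B1 line itself changed by -0.04 on induction, while shCTRL rose by 0.39 (adjusted p = 0.0458 in shCTRL alone), and without week 2 the response was -0.27 and not called (adjusted p = 0.21). The WNT pathway and its targets had 1 fall of 26, CTNNB1, which encodes β-catenin (-0.40 (SE 0.12, adjusted p = 0.091)), while AXIN2 had -0.23 (adjusted p = 0.275). In the MYC and MAX network 1 of 12 rose, MXD4 (0.49 (SE 0.13, adjusted p = 0.07)), which had 0.78 with no shCTRL correction, and MYC itself had -0.047 (adjusted p = 0.896). Of 81 cytosolic ribosomal protein genes 1 rose, RPL36A (0.52), and of 78 mitochondrial ones 1 fell, MRPS27 (-0.46). Of 22 NF-κB targets 1 rose, LCN2, of 23 AP-1 and immediate early genes 1 fell, DUSP6, which dephosphorylates ERK (-0.47 (SE 0.12, adjusted p = 0.0595)), and of 26 interferon-stimulated genes 1 rose, IFI35 (0.38 (SE 0.11, adjusted p = 0.0997)). The calls of CTSD, EIF4EBP1, EIF4A2, CTNNB1, MXD4, RPL36A, MRPS27, DUSP6 and IFI35 were lost without week 1 and without week 4, and that of LCN2 was kept with each week left out.

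The colorectal epithelial markers held 2 rises of 9, CLDN7 and CDH1, against 2.34% of all genes called higher. CLDN7, a claudin of tight junctions, had 6.04, 6.03, 5.72 and 5.50 in shCTRL -DOX, 5.89, 6.56, 6.12 and 5.72 in shCTRL +DOX, 5.75 to 6.23 in shEIF2B1 -DOX and 6.99, 7.23, 7.14 and 6.70 in shEIF2B1 +DOX. CLDN7 rose by 0.77 (SE 0.15, adjusted p = 0.00853). CDH1, E-cadherin, had 4.58, 4.63, 4.73 and 4.29 against 3.88 to 4.27 elsewhere, near the low end of the table, and rose by 0.36 (SE 0.10, adjusted p = 0.083), a call lost with any week left out. With limma 0 genes were called among 81 of nuclear-encoded oxidative phosphorylation, 41 of the proteasome, 24 of the matrix and integrins, 23 of the BCL2 family and death receptors, 22 of glycolysis, 19 of the NRF2 antioxidant response and 6 metallothioneins. At an unadjusted p under 0.05, oxidative phosphorylation had 2 higher and 3 lower, the proteasome 1 and 4, the matrix list 6 and 2, the BCL2 list 2 and 4, glycolysis 0 and 3, the NRF2 list 2 and 1 and the metallothioneins 0 and 1.

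Doxycycline moved shCTRL as well. Induction changed 531 genes in the control line (4.44%), a count that ranged from 3 to 2452 with 1 week left out. Of the genes called in the response, 43 of the 279 higher and 10 of the 135 lower were also called in this control change. Several of the rises described above were among them. SLFN5, NIBAN1, ALDH1L2, ASS1 and CLGN rose by 0.55, 0.51, 0.47, 0.38 and 0.32 in shCTRL alone. Their adjusted p by limma was 0.0458, 0.0661, 0.0477, 0.0664 and 0.0779. EIF4A2 went the other way, with a control rise and a lower response. For the cytosolic synthetases the median control change was 0.17 and the median response 0.10. With no correction for shCTRL, 265 of the 279 and 127 of the 135 were still called in the change of the shEIF2B1 line alone. That fit called 4104 of the 11947 genes, 2094 higher and 2010 lower, and used the same shEIF2B1 libraries.

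RPFs of the same lysates give a second measurement of the same cells, though not an independent one. The RPF calls rested on the week block: without it limma called 48 genes higher and 2 lower, against 1335 and 1703 with it. Of the called genes that are also in the RPF table, 167 of 241 higher genes were called higher in RPFs (12% of all RPF genes were) and 100 of 133 lower genes were called lower (15.3% of all were), and 0 were called in opposite directions. ANLN had -1.39 in RPFs against -0.73 in total RNA, TTK -1.46 against -0.74, and the mitosis list a median of -0.81 with 43 of 51 genes lower. The effectors of ATF4 and CHOP had a median of 0.62 in RPFs with 18 of 29 higher. LCN2 had 3.88 in RPFs against 2.77 in total RNA, DDIT3 1.49 against 0.91 and TRIB3 2.00 against 1.20. Of the 21 cytosolic aminoacyl-tRNA synthetases 3 were called higher and 3 lower in RPFs (median -0.049). GARS1 had 0.22 in RPFs (adjusted p = 0.331) and 0.66 in total RNA, and IARS1 0.32 (adjusted p = 0.149) and 0.49, so both were called in total RNA and not in RPFs, while WARS1 and MARS1 were called in both, with 0.78 (adjusted p = 0.00164) and 0.38 (adjusted p = 0.0283) in RPFs. DNAJC10 had -0.091 (adjusted p = 0.748) in RPFs, CEBPG 0.18 (adjusted p = 0.539) and EIF2B1 -0.53 (adjusted p = 0.0109). The hnRNP list had a median of -0.70 in RPFs, with 15 of 25 genes lower and 1 higher. The difference between the measurements was not tested here.

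**Figure D4:**
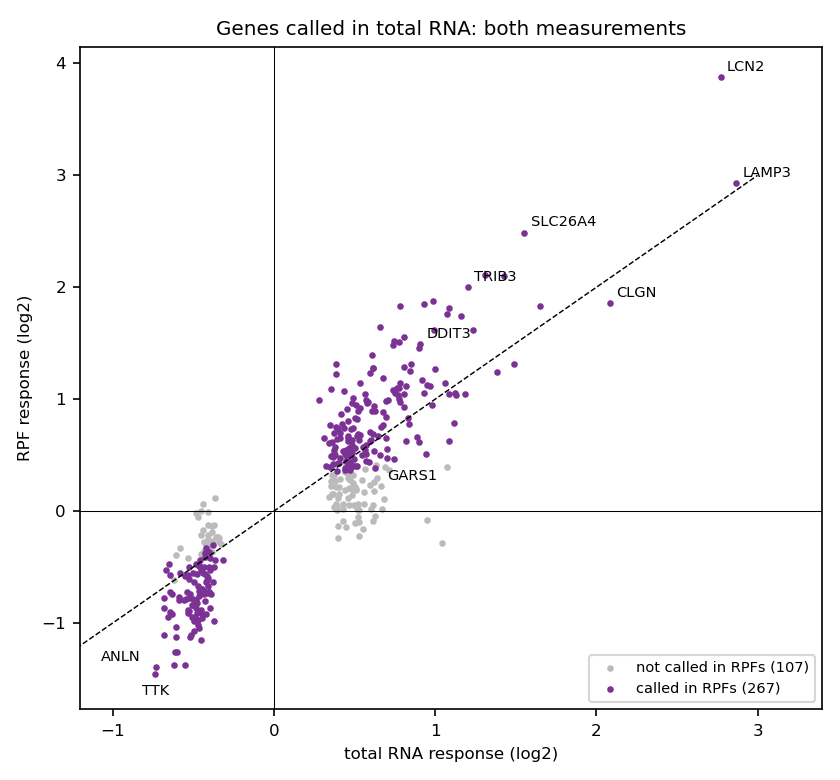
Log2 response of the 374 called genes that are in both tables, in total RNA on the x axis and in RPFs of the same lysates on the y axis; purple points (267) were also called in RPFs, grey points (107) were not, and the dashed line marks equal responses. Every purple point lies in the upper right or the lower left quadrant, while GARS1 is among the grey ones.

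The line shEIF2B4, which depletes the δ subunit, gave a response in total RNA computed against the same shCTRL libraries, so the values are set side by side without a measure of likeness. It called 452 genes higher (3.78%) and 193 lower (1.62%). For LAMP3 the responses were 2.87 after shEIF2B1 and 2.74 after shEIF2B4, for DDIT3 0.91 and 1.16, for TRIB3 1.20 and 1.29 and for ASNS 0.83 and 1.29. For ANLN they were -0.73 and -0.47, for PCNA -0.65 and -0.22 and for MSMO1 -0.66 and -0.023. All of these genes were called after shEIF2B1, and a choice by that call favours larger values there. Medians of the mitosis list were -0.46 and -0.24, with 26 and 9 genes lower. The difference between both responses was tested as a contrast over 24 libraries, and 12 genes were called (0.1%), against 1528 at an unadjusted p under 0.05. None of the 52 mitosis genes was among the 12, and the intervals of the difference were -0.47 to -0.054 for ANLN, -0.73 to -0.15 for TTK and -0.69 to -0.17 for PCNA (adjusted p = 0.318, 0.26 and 0.219). None of the cholesterol genes was among the 12 either, and MSMO1 had a difference of -0.63 (interval -1.05 to -0.22, adjusted p = 0.255).

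The 6 genes with the smallest adjusted p in that difference were UPP1, NT5E, MEF2A, SPATA20, MCAM and LGALS3BP. UPP1, uridine phosphorylase, rose by 0.81 after shEIF2B1 and by 1.55 after shEIF2B4, a difference of -0.74 (SE 0.11, adjusted p = 0.0145). NT5E, the ectonucleotidase CD73, rose by 0.68 and 1.33, a difference of -0.65 (adjusted p = 0.0257). MEF2A, a transcription factor, had -0.34 and 0.39 (difference -0.73, adjusted p = 0.0257), and SPATA20 had 0.36 and -0.28 (difference 0.64, adjusted p = 0.0499). The surface protein MCAM had 0.30 and -0.41, and the secreted LGALS3BP 0.26 and -0.47 (adjusted p = 0.0634 for both differences). EIF2B1 differed as well, with -0.67 after shEIF2B1 and 0.011 after shEIF2B4 (adjusted p = 0.0634). Without single weeks the count of 12 fell to between 0 and 2: it was 0 without week 1, 3 or 4, when 1301, 1267 and 1573 genes had an unadjusted p under 0.05.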

How the data were processed

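Total cytoplasmic RNA was depleted of rRNA and sequenced from 4 weekly replicates per group; replicate 3 joins 2 sequencing runs. Per the labels, reads were trimmed with cutadapt 1.18 and handled with SAMtools 1.9 and R 4.3.1. The authors deduplicated them, aligned them to GENCODE v38 protein-coding transcripts with Bowtie2, quantified them with RSEM, kept the most expressed transcript per gene and deposited DESeq2 regularized log2 values. These carry no counts, so count tests, intervals from counting and depths were not possible.

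Each response is the interaction of shRNA and DOX in a linear model that also holds the week, fitted with limma 3.58.1 (lmFit, and eBayes with trend) in R 4.3.3, and the threshold was 0.1 after Benjamini-Hochberg adjustment over all genes. No sample was left out. The code was tested on simulated data. The labels give replicate numbers, and these were taken as the 4 separate weeks that the study states. After group means were removed, the correlation of 2 libraries with 1 number was over 0.1 in 15 of 24 pairs (mean 0.20). For different numbers the mean was -0.066. Removing group means pushes this value below 0 when the former is above 0, so it is no separate baseline. Nothing in the labels gives separately thawed or cloned cultures. The p-values therefore measure the scatter left among libraries of the same lines once differences shared by a whole week are removed. Genes named are the eIF2B subunits and the genes the study names, the 12 largest rises and falls with 1 sign in 4 of 4 weeks, up to 4 called members of a list by adjusted p and the 6 clearest differences between the knockdowns; further ones were named after their values were seen, and some genes are not reported here. The gene lists were written from general knowledge, and the members and lists were chosen with earlier results of these data known. Alternatives left out the block, the trend, the shCTRL correction, the lowest 25% of genes, or 1 week at a time, centred the libraries, used all 24 libraries, used within-week changes or called at 0.05; leaving out 1 deviating library was added after the data were seen. Promoters and positions come from RefSeq (GRCh38.p14), which is not the authors' annotation; figures were drawn with matplotlib 3.10.9 in Python 3.11.15.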

Additional observations from a re-analysis of the deposited data

Results flagged for a closer look

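In 34 named genes the 4 within-week responses were searched for a week far from the other 3, and chance alone marks about 1 in 20 genes. BEX2, a small adaptor protein, had a response of 1.93 in week 4 against 1.32 to 1.38 in the other weeks. ANLN had -0.60 in week 4 against -0.79 to -0.78 in the others, so its fall was smallest there.

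The response to shEIF2B1 minus that to shEIF2B4 had an adjusted p under 0.1 by limma in 12 genes. The difference was -0.74 in UPP1, -0.65 in NT5E, -0.73 in MEF2A, -0.64 in GULP1 and -0.68 in EIF2B1, and 0.72 in LGALS3BP, 0.71 in MCAM, 0.70 in PLPPR4, 0.64 in SPATA20, 0.59 in SLIT1, 0.51 in HTRA1 and 0.45 in BECN1. GULP1, an adaptor of engulfment, had 0.28 after shEIF2B1 and 0.92 after shEIF2B4, and SLIT1, a secreted guidance cue, had 0.90 and 0.31. HTRA1, a secreted protease, rose by 0.45 after shEIF2B1 and had -0.066 after shEIF2B4, and BECN1, which encodes the autophagy protein beclin 1, had 0.16 and -0.29. PLPPR4 had 0.26 and -0.44.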

How the results depend on the processing

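The count of 414 genes called was 400 without the mean-variance trend, 302 with the lowest 25% of genes left out, 415 with centred libraries and 592 with all 24 libraries in one fit. It was 191 with no replicate block (all 191 among the 414), 4104 with no shCTRL correction, 209 at 0.05, 848 in the fit of within-week changes with the replicate block, and 111 to 679 with a week or the deviating library left out. The share of higher genes, 67.4%, was 87.4% without week 1 or week 4, 76.4% without the block, 76.6% at 0.05, 57.9% without the lowest genes and 51% without the shCTRL correction. The difference between the knockdowns, 12 genes, had 1 with no replicate block (1014 at an unadjusted p under 0.05), 21 without the lowest genes, 24 with centred libraries, 4 at 0.05, 67 in the within-week fit and 0 to 2 with a week left out (limma; 718 to 1573 at an unadjusted p under 0.05). The RPF count of 3038 was 50 with no replicate block (48 higher and 2 lower), 1963 at 0.05 and 1529 to 2714 with a week left out. The shCTRL change, 531 genes, was 9 with no replicate block, 41 at 0.05 and 3 to 2452 with a week left out. Of 84 named genes, 1 changed direction: EIF2B2, at 0.046 without week 1 and -0.14 to 0.046 over the weeks left out. Of those genes, 37 lost the call without week 1, 9 without week 2, 25 without week 3, 37 without week 4, 30 without the block and 2 without the deviating library. With no shCTRL correction 7 gained a call and 1 lost it. The causes were not tested. With no read counts, nothing can be said of depth, and genes near the low end of the table have shrunken responses.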

Other observations

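Most of the following genes lie outside the lists, and apart from SLPI and CLDN7 they were chosen after their values were seen, so they stand for no group beyond the counts given. SLPI and the serpins SERPINA3 and SERPINA1, all inhibitors of serine proteases, rose by 1.43, 0.79 and 0.62. Of 12 measured serpins 3 were called higher, against 2.34% of all genes. ESRP1, a splicing regulator of epithelial cells, rose by 1.18 (SE 0.18, adjusted p = 0.000966). The kallikrein KLK10 rose by 1.09, the membrane protein MAL2 by 1.09, the EGFR ligand AREG by 0.76 and the calcium-binding protein S100P by 0.61. Of 8 measured claudins 2 rose, CLDN7 and CLDN1 (0.76), with a median of 0.011 over the family. Among 13 keratins KRT38 rose by 0.78 and KRT5 fell, with a response of -0.54. The sterol exporters ABCA1 and ABCG1 rose by 0.75 (SE 0.16, adjusted p = 0.0215) and 0.93 (SE 0.15, adjusted p = 0.00182), beside the falls in cholesterol synthesis. The arrestin-like genes TXNIP and ARRDC4, both targets of the glucose-responsive MondoA, rose by 0.93 (SE 0.21, adjusted p = 0.0216) and 0.64 (SE 0.15, adjusted p = 0.0295). PCK2, the mitochondrial PEP carboxykinase, rose by 0.81 (SE 0.13, adjusted p = 0.00126), and GTPBP2, a factor in ribosome rescue, by 0.57 (SE 0.11, adjusted p = 0.00853). The calls of TXNIP, ARRDC4 and SERPINA1 were lost without week 1, 3 or 4, those of CLDN1 and KRT5 without week 1 or 4, that of ABCA1 without week 1 or 3, that of MAL2 without week 1 and that of GTPBP2 without week 4.

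Some RNA-processing factors were also called lower, again chosen after their values were seen. SF3B3 had -0.48 (SE 0.11, adjusted p = 0.0335), and 2 of 9 genes for SF3A and SF3B subunits were called. The helicases DHX15 and DHX9 had -0.51 (SE 0.11, adjusted p = 0.0123) and -0.45 (SE 0.13, adjusted p = 0.0755), 2 of 15 measured DHX genes. THRAP3 and PSPC1 had responses of -0.53 and -0.52, the splicing kinase PRPF4B -0.47 and the nucleolar protein NCL -0.55 (-1.37 in RPFs). The calls of these genes were lost without week 1 and without week 4. Of 11 SRSF splicing factors 0 were called by limma, with 0 higher and 3 lower at an unadjusted p under 0.05 and a median of -0.13. By family, in cell division 4 of 8 condensin subunits, 3 of 21 CENP genes, 6 of 34 kinesins and 1 of 6 MCM helicase subunits were called lower. Over all genes 1.13% were. The families were chosen after values were seen, and several of these genes are members of the mitosis and replication lists.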
